A study of Mus musculus with 11 samples.

Results

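The male arm of a study of the mouse lateral habenula compared collagen antibody-induced arthritis (CAIA) with vehicle. It was taken as the count columns of the male mice, which hold 3 CAIA libraries and 2 control libraries, 5 of the 11 libraries of the series. The controls bear the replicate numbers 1 and 3, and no other male control was analysed here. All mice were BALB/c animals aged 3 months. The CAIA mice received monoclonal antibodies to type II collagen, a mix of 5 clones at 50 mg/kg, and, 3 days later, lipopolysaccharide (LPS, bacterial endotoxin) at 1 mg/kg, both into the peritoneum. The control mice received vehicle, so arthritis and exposure to LPS cannot be told apart. The 6 female libraries, 3 CAIA and 3 control of the same strain and age, serve here only for comparison. Nothing in the labels ties each library to its own animal. The p-values therefore reflect the variation among these samples, which may be technical. The study's subject is the link between rheumatoid arthritis and depression-like behaviour.

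The lateral habenula is a small nucleus of the epithalamus that receives input from the basal ganglia and limbic forebrain and acts on the dopamine and serotonin neurons of the midbrain. It is known for signalling disappointing or aversive outcomes, and most of its neurons are glutamatergic. It lies against the medial habenula and the thalamus, below the hippocampus and beside the choroid plexus of the third ventricle, with the pineal gland behind it. RNA of dissected tissue can therefore hold transcripts of these neighbours, and in such bulk RNA fewer cells of a type and less RNA per cell cannot be told apart.

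Total counts were 25317306 to 27502700 per male library, and mitochondrial transcripts took 3.03 to 3.44% of them. Levels are given as CPM, counts scaled to 1 common library size with normalisation over all 11 libraries. The Y-linked gene Ddx3y was at 63.5 to 83.1 CPM in the male libraries and at 0.0345 CPM or less in the female ones. Xist, the X-inactivation transcript of females, was at 0.117 to 0.179 CPM in 4 male libraries, at 1.65 CPM in male CAIA replicate 3 and at 554 to 760 CPM in the female libraries. All 12 lateral habenula markers of a fixed list were measured, with a mean level of 6.02 to 6.20 log2 CPM in the male libraries. The medial habenula markers were at 6.56 to 6.80 and the thalamus markers at 7.51 to 7.80 log2 CPM. Male control replicate 1 stood apart in its counts. The chi-square per degree of freedom over genes was 26.8 between the controls, 11.5 to 17.7 between control replicate 3 and the CAIA libraries, and 10.0 to 15.6 among the CAIA libraries.

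The comparison asked which transcripts differed between male CAIA and male control tissue. Fitted on these 5 libraries alone, 41 genes rose and 2 fell in CAIA among the 18790 genes tested (edgeR's quasi-likelihood test, adjusted p under 0.05). The calls were 0.229% of genes tested, with 0.218% higher and 0.0106% lower. The genes that rose include several known from forebrain neurons, among them the synaptic gene C1ql2, the transcription factor gene Tbr1 and the potassium channel genes Kcnj4 and Kcnh3. The genes that fell were the collagen gene Col9a3 and the transcription factor gene Tcf21. In all 43, the CAIA libraries did not overlap with the controls, which held for 9.34% of all genes tested in the higher and 8.07% in the lower direction. Those 43 were chosen by their p in the same libraries, which favours such a gap, so this is a description. At an unadjusted p under 0.05 there were 542 higher genes (2.88%) and 340 lower genes (1.81%). When all 11 libraries in 4 groups shared an estimate of the spread, no gene passed (edgeR smallest adjusted p = 0.167, with 1104 genes at an unadjusted p under 0.05). On the 5 libraries, DESeq2 called 166 genes (0.856%), limma-voom 26, and limma-voom with sample quality weights 3.

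The gene with the lowest p was Gm10123, a processed pseudogene of the cyclophilin A gene Ppia on chromosome 9 (96895658 to 96896147, GRCm38, plus strand). Its 490 bases are 100% identical to the spliced Ppia transcript, with 0 mismatches and 0 gaps, whereas Ppia itself lies on chromosome 11 (6415443 to 6419817). A stretch of 240 bases is shown because it explains what a read of this gene is, chr9:96895658-96895897 on the plus strand of GRCm38, from the GENCODE M21 transcript. The capitals mark the last base of a Ppia exon and the first base of the next, at the 3 exon junctions that fall in the stretch.
Gm10123: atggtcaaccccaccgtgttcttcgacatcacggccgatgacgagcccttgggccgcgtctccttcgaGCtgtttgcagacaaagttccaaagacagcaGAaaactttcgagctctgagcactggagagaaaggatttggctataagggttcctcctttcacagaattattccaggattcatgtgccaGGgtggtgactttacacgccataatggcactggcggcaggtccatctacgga
A read of these bases fits the pseudogene and the spliced messenger RNA equally well, so reads of the genes cannot be told apart. Gm10123 was at 47.7 and 48.3 CPM in the controls and at 189, 208 and 162 CPM in CAIA replicates 1, 2 and 3. All CAIA libraries were thus above both controls, and its log2 fold change was 1.96 ± 0.14 (SE; edgeR adjusted p = 4.91e-05). Ppia, named after its values were seen, went the other way, at 700.1 and 526 CPM in the controls and at 367, 307 and 472 CPM in CAIA (log2 fold change -0.68 ± 0.17, edgeR adjusted p = 0.251). Gm10123 took 6.38 and 8.41% of the summed CPM of the pair in the controls and 34.1, 40.3 and 25.5% in CAIA. Among the females the share ranged from 7.11 to 42.9%. The rise of Gm10123 is therefore uncertain as a change of one gene.

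Of the 12 called genes with the largest rise, the lactase gene Lct came first. It was at 0.151 and 0.395 CPM in the controls and at 11.3, 17.1 and 6.46 CPM in CAIA. The groups lie far apart, but the controls together hold only 15 counts, against 906 in CAIA, which is 41.6 times as many at equal depth (95% counting interval 25.1 to 74.6). The fitted log2 fold change was 5.37 ± 0.64 (edgeR adjusted p = 0.0417). AC171111.1, a long non-coding RNA gene on chromosome 17 (14249851 to 14277755, plus strand), had 3 control counts and 150 CAIA counts. That is a ratio of 34.4 (counting interval 11.6 to 169), and such intervals cover counting error only. Mas1, which encodes the Mas receptor of the renin-angiotensin system, had 14 control counts and 297 CAIA counts, a ratio of 14.6 (8.57 to 27.0). These first 3 rises thus rest on very low control levels, and their sizes are loosely set.

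The remaining members of the 12 had more control reads. C1ql2 encodes a C1q-like protein that granule cells of the dentate gyrus release at synapses. It was at 4.28 and 2.55 CPM in the controls and at 18.7, 20.4 and 28.4 CPM in CAIA, a log2 fold change of 2.72 ± 0.25 (edgeR adjusted p = 0.00225). Tbr1, a T-box factor of glutamatergic cortical neurons, was at 1.29 and 0.753 CPM in the controls and at 6.27, 10.7 and 5.45 CPM in CAIA. Its log2 fold change was 2.87 ± 0.36. Crym encodes mu-crystallin, which binds thyroid hormone. It was at 0.984 and 0.968 CPM in the controls and at 5.24, 7.29 and 4.34 CPM in CAIA, a log2 fold change of 2.52 ± 0.30. Kcnj4, an inwardly rectifying potassium channel gene, was at 2.04 and 2.40 CPM in the controls and at 9.54, 13.8 and 8.32 CPM in CAIA, a log2 fold change of 2.24 ± 0.26. Except for C1ql2, where replicate 3 was highest, the highest CAIA value of each of these genes was in replicate 2.

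Zfp831, a zinc finger gene, rose by 2.94 ± 0.41 and Il16, the gene of the interleukin-16 precursor, by 2.85 ± 0.36 on the log2 scale. The death receptor gene Tnfrsf25 rose by 2.26 ± 0.34, the ankyrin repeat gene Ankrd33b by 2.24 ± 0.28 and Kcnh3, a voltage-gated potassium channel gene of the forebrain, by 2.16 ± 0.28. Il16 shares exon bases with genes on the opposite strand, as do 15 of the 43 called genes, and the strand setting of the counting is not given in the sources used here. Reads of such partners cannot be told apart. In each of the 12 genes the male controls lay below all male CAIA libraries; the levels of the 12 in every library are plotted with the female libraries beside them.

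**Figure D1:**
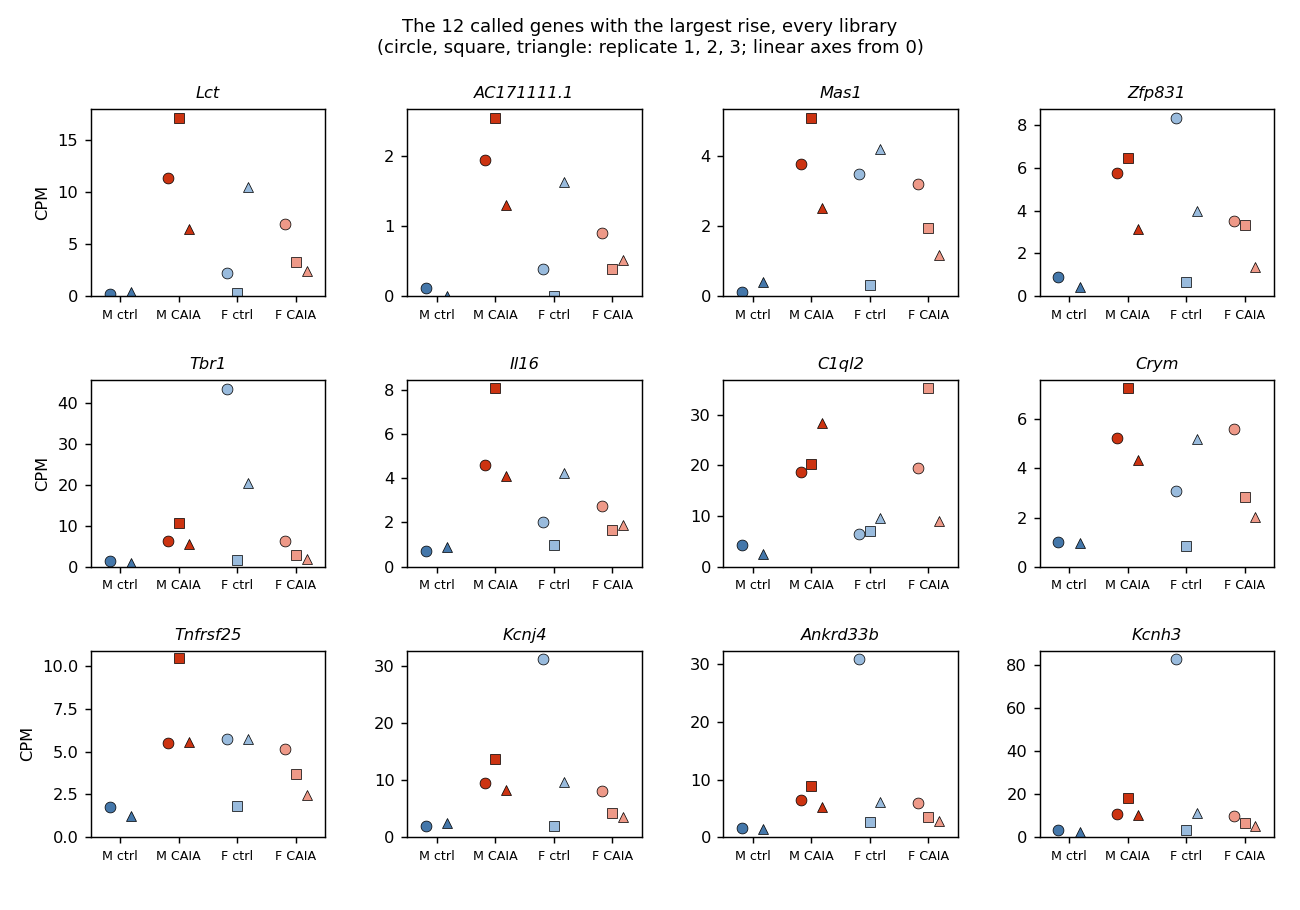
Level of the 12 called genes with the largest rise in CPM on linear axes from 0, in each of the 11 libraries by sex and treatment (M male, F female; circle, square and triangle for replicates 1, 2 and 3). Both male controls sit below the 3 male CAIA libraries in every panel, and female control replicate 2 sits near the male controls in most panels, at 0.236 CPM for Lct and 1.89 CPM for Kcnj4.

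Smaller rises that passed include genes with other roles. Hrk, a BH3-only activator of apoptosis, was at 13.4 and 11.6 CPM in the controls and at 23.3, 28.2 and 20.4 CPM in CAIA, a log2 fold change of 0.94 ± 0.16 (edgeR adjusted p = 0.0340). It was the only called gene of the 13 tested BCL2 family regulators, whose median was -0.05 and turned to 0.08 without control replicate 1. Ptpre, a receptor-type tyrosine phosphatase gene, was at 10.7 and 12.4 CPM in the controls and at 19.9, 20.2 and 19.4 CPM in CAIA. Its CAIA libraries agree closely, and the log2 fold change was 0.78 ± 0.14. Ak5, an adenylate kinase gene of brain, rose by 0.90 ± 0.15. The guanine deaminase gene Gda, named after its values were seen, was at 5.15 and 5.63 CPM in the controls and at 21.8, 24.0 and 16.3 CPM in CAIA, a log2 fold change of 1.94 ± 0.19.

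Further called genes, named after their values were seen, are known from excitable cells, synapses and cell adhesion. Kcnv1, which encodes a modifier subunit of voltage-gated potassium channels, was at 0.795 and 0.753 CPM in the controls and at 3.04, 3.00 and 2.69 CPM in CAIA. The channel genes Trpc6 (cation) and Ryr1 (calcium release) rose by 1.73 ± 0.32 and 2.08 ± 0.32 on the log2 scale (SE). Itpka, an inositol phosphate kinase gene of dendritic spines, rose by 1.73 ± 0.23, from 4.77 and 4.66 CPM in the controls to 15.1, 20.2 and 11.4 CPM in CAIA. Cplx2, which encodes the vesicle fusion regulator complexin-2, was at 193 and 224 CPM in the controls and at 340.5, 458 and 343 CPM in CAIA, a rise of 0.87 ± 0.15. The groups do not overlap in Itpka or Cplx2, and CAIA replicate 2 was highest in both. The adhesion genes Cdh9, a cadherin, Pcdh8, a protocadherin, and Dscaml1, an immunoglobulin-family cell recognition gene, rose by 1.70 ± 0.30, 1.21 ± 0.17 and 1.29 ± 0.17. Without male control replicate 1, Dscaml1 still passed in edgeR's quasi-likelihood test (adjusted p = 0.0265), and the other 7 of these 8 genes did not (adjusted p from 0.109 to 0.271). Cdh9, Cplx2, Kcnv1 and Trpc6 also missed the threshold without CAIA replicate 1, CAIA replicate 2 or either of them.

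A pair of called genes varied together over the libraries. Lars2, the mitochondrial leucyl-tRNA synthetase gene, rose by 1.09 ± 0.13, and Gm23935, annotated as a miRNA gene of 57 bases, rose by 1.03 ± 0.16 on the log2 scale in the male contrast. Both are named after their values were seen. The ratio of Gm23935 counts to Lars2 counts stayed between 3.23 and 3.97 in all 11 libraries, although the genes lie on chromosomes 16 and 9. Whether they share reads was not tested.

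The falls that passed were 2. Col9a3, a chain of the cartilage collagen IX, was at 57.6 and 53.8 CPM in the controls and at 26.5, 35.8 and 24.3 CPM in CAIA, a log2 fold change of -0.95 ± 0.16 (edgeR adjusted p = 0.0321). The CAIA values lie well under the controls, with replicate 2 nearest to them. Its exons share 234 bases with Tcfl5 on the opposite strand. Tcf21, a transcription factor gene of mesenchymal cells, named after its values were seen, had 43 counts in the controls and 2 in CAIA. That is a ratio of control to CAIA of 31.2 (counting interval 8.14 to 266), at a mean under 1 CPM.

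Every call was refitted without each library in turn, to see which rest on a single one. All 43 genes kept their sign and at least 2/3 of their log2 fold change in each of the 5 fits. The calls were less steady. Only 14 genes passed in all 5 fits, and 1, Tcf21, passed in none. Among the 14 were Gm10123, Gda, C1ql2, Crym, Kcnj4, Ankrd33b, Mas1, Zfp831, AC171111.1, Lars2, Dscaml1, Iqgap2 and Rapgef5. A further 8 lost the call in 1 fit only, and in each of them it was the fit without male control replicate 1. They were Tbr1, Il16, Itpka, Pcdh8, Kcng2, Ryr1, Ipcef1 and Gm23935. Lct passed only without CAIA replicate 2 or 3, Ptpre only without control replicate 3, and Col9a3 only without control replicate 3 or CAIA replicate 2. Hrk passed only without control replicate 3 or CAIA replicate 3. Kcnh3 lost its call without control replicate 1 (log2 fold change 2.33) and without control replicate 3 (2.00), as did Tnfrsf25 (2.55 and 2.02). Ak5 lost its call without CAIA replicate 1 or 2 (0.86 in both). A fit with 4 libraries has 2 residual degrees of freedom in place of 3.

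The number of calls moved with the library left out. It was 22 without control replicate 1, of which 17 were among the 43, and 540 without control replicate 3, of which 35 were. Each of these fits leaves a lone control that is assumed to vary like the CAIA libraries. It was 33 without CAIA replicate 1 (29 shared), 87 without CAIA replicate 2 (31 shared) and 85 without CAIA replicate 3 (38 shared). Without CAIA replicate 2, 44 of the 87 calls were lower in CAIA, against 2 of 43 with it.

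The highest median of the fixed gene lists belonged to genes known from hippocampal and cortical neurons. All 15 listed markers were tested, and 12 had a positive log2 fold change (49% of all genes tested had one). In 10, every CAIA library was higher than either control (9.34% of all genes tested), and 3 passed, C1ql2, Crym and Tbr1. The median of the 15 was 1.34, against -0.01 over all genes tested. The gene lists were chosen with earlier results of these data known, so their counts and medians, here and below, are a description. Other members with low p did not pass. Bcl11b, a transcription factor of deep-layer cortical and striatal neurons, was at 13.5 and 15.8 CPM in the controls and at 42.9, 56.4 and 30.8 CPM in CAIA (1.57 ± 0.25, edgeR adjusted p = 0.0677). Prox1, a homeobox factor of dentate granule cells that is also found in thalamus, was at 99.3 and 98.6 CPM in the controls and at 149.6, 136 and 116 CPM in CAIA (0.43 ± 0.13). Calb1, Fibcd1 and Wfs1, named after their values were seen, were at -0.06, -0.04 and -0.01.

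Averaged over its members, this list was at 2.91 and 3.06 log2 CPM in the male controls and at 4.34, 4.55 and 4.09 in male CAIA. The male groups do not overlap. The females ranged from 3.25 to 4.89 in controls and from 3.54 to 4.31 in CAIA, so every female library lay above both male controls. The summed CPM of the 15 markers was 524 to 558 in male controls and 623 to 781 in male CAIA, and none was without counts in either group. The median stayed between 1.04 and 1.72 whichever library was left out, so this value does not rest on a single library. The part of hippocampal or cortical tissue in the rise of the other called genes was not tested.

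The lowest median belonged to genes of the choroid plexus, whose epithelium makes the cerebrospinal fluid. All 14 markers were lower in every male CAIA library than in either control, which held for 8.07% of all genes tested. Their median log2 fold change was -1.85, and none passed (2 of 14 at an unadjusted p under 0.05 in edgeR, and 1 passed in DESeq2). Ttr, which encodes the thyroid hormone carrier transthyretin, was at 2719 and 2554.5 CPM in the controls and at 65.5, 1180 and 304 CPM in CAIA replicates 1, 2 and 3. Aqp1, the water channel of the apical membrane, was at 18.5 and 17.0 CPM in the controls and at 0.868, 8.15 and 1.97 CPM in CAIA. The controls agree closely, while CAIA replicates 1 and 2 lie far apart in both genes. The log2 fold change was -2.34 ± 1.38 for Ttr and -2.27 ± 1.00 for Aqp1 (edgeR adjusted p = 0.996 for both).

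Several other choroid plexus genes kept the same order of the CAIA libraries. Slc4a5, a bicarbonate transporter gene, was at 26.4 and 27.1 CPM in the controls and at 0.710, 11.9 and 2.80 CPM in CAIA. The folate receptor gene Folr1 was at 24.4 and 23.4 CPM and then 1.85, 11.3 and 5.49 CPM, and Kcne2, a potassium channel subunit gene, at 14.2 and 16.4 CPM and then 0.670, 7.10 and 2.48 CPM. Sostdc1, a BMP and Wnt antagonist gene, was at 59.5 and 62.1 CPM in the controls and at 8.95, 30.6 and 11.5 CPM in CAIA. In each, CAIA replicate 2 was the nearest to the controls and replicate 1 the farthest. Prlr, the prolactin receptor gene, differed less, with 25.2 and 34.9 CPM in the controls and 10.5, 18.5 and 13.3 CPM in CAIA (-1.09 ± 0.24, edgeR adjusted p = 0.187), as did the homeobox gene Otx2 at -0.45 ± 0.15.

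One library decides the call of these genes. Without CAIA replicate 2 the median of the list was -3.06 and 7 of 14 passed, among them Aqp1 at -3.63 and Sostdc1 at -2.58. Over all genes, 87 of 18409 passed in that fit. The mean level of the markers was 5.55 and 5.80 log2 CPM in the controls and 2.10, 4.81 and 3.33 in CAIA. Their summed CPM was 4290 to 4469 in controls and 287 to 2116 in CAIA, and every marker had counts in both groups. Without any one of the other 4 libraries the median was between -2.06 and -1.49 and none passed. The female CAIA libraries were close together, at 1.94 to 2.10 log2 CPM, against 5.28 to 6.20 in female controls.

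**Figure D2:**
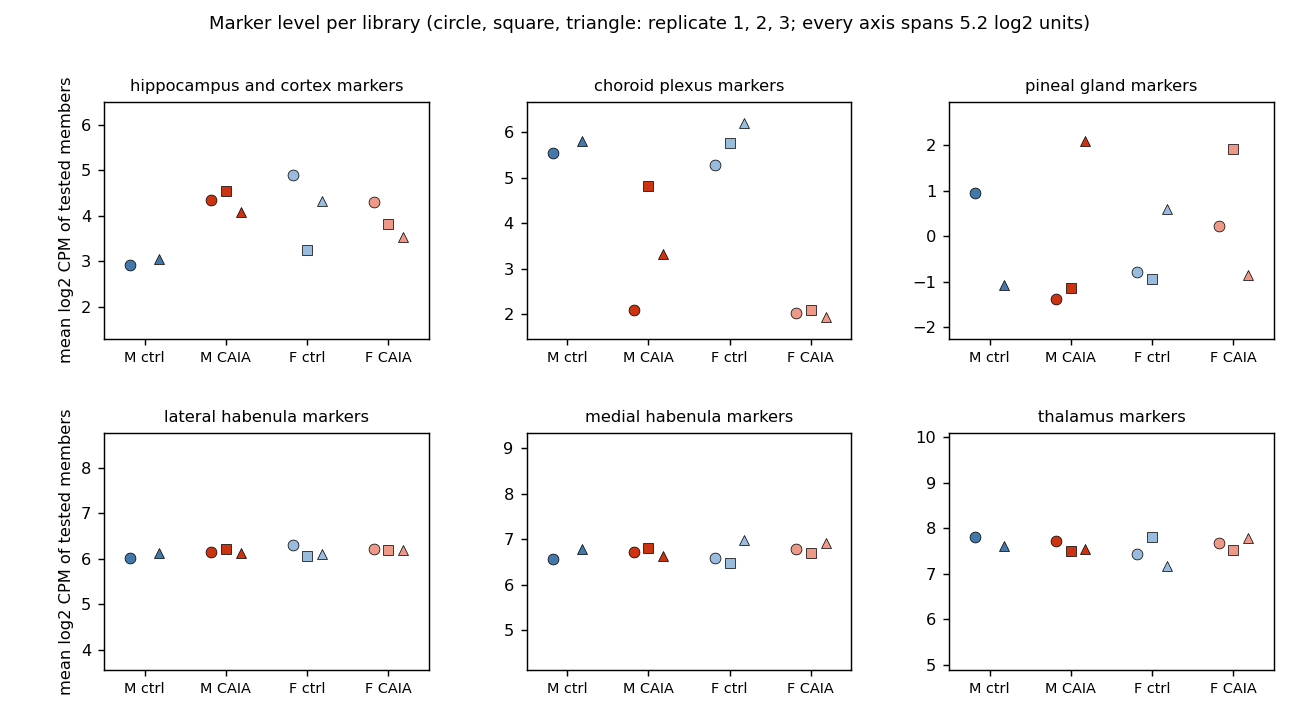
Mean log2 CPM of the tested members of 6 marker lists in each of the 11 libraries (M male, F female; circle, square and triangle for replicates 1, 2 and 3), with every axis spanning the same number of log2 units. Hippocampus and cortex markers are lowest in the male controls (2.91 and 3.06), choroid plexus markers are spread from 2.10 to 4.81 in male CAIA, pineal markers are raised in male control replicate 1 (0.95) and male CAIA replicate 3 (2.09), and the lateral habenula markers vary little.

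Markers of the pineal gland, which makes melatonin, were unevenly spread over libraries of both groups. Their mean level was 0.95 log2 CPM in control replicate 1 and 2.09 in CAIA replicate 3, but -1.38 to -1.08 in the other male libraries. Sag, the arrestin gene of photoreceptors and pineal cells, was at 2.46 CPM in control replicate 1 and 10.3 CPM in CAIA replicate 3, and at 0.237 to 0.702 CPM in the other male libraries. Aanat, the first gene of the list, varied far less. It had 39 and 33 counts in the controls and 24, 28 and 32 in CAIA replicates 1, 2 and 3. Rom1 was also nearer to even, with 447 and 342 counts and then 315, 289 and 396. Gch1 was clearly raised in CAIA replicate 3 only, with 47 and 38 counts and then 31, 39 and 89. The median of the 8 tested members, 0.53, rests on CAIA replicate 3, without which it was -0.34 over the 4 that could still be tested, and on control replicate 3, without which it was 0.23. The summed CPM of the 10 listed genes was 15.5 to 29.0 in controls and 14.8 to 56.9 in CAIA, and Gngt1 had no count in the controls. Without both libraries with raised pineal markers, an alternative chosen after seeing the data that leaves a lone control, 207 genes were called, 42 of them among the 43.

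Genes of the habenula itself differed little. Of the markers of the lateral habenula the median was -0.02, with 0 of 12 called and 1 at an unadjusted p under 0.05, the somatostatin gene Sst at 0.73 ± 0.19. Gap43, a growth-cone protein gene that heads that list, was at 304 and 206 CPM in the controls and at 240.1, 207 and 273 CPM in CAIA, overlapping ranges. The medial habenula markers had a median of -0.02 as well, and their lead gene Tac1, the substance P precursor, was at -0.08 ± 0.14, and at 0.05 without control replicate 1. Lmo3, a LIM domain gene of that list, was at 0.47 ± 0.15, and 0.27 without control replicate 1. The thalamus markers had a median of -0.09 with 0 of 15 called, and of -0.03 without control replicate 1 and -0.05 without CAIA replicate 2. The Wnt effector gene Lef1 (-0.41 ± 0.14) and Ramp3, a receptor accessory protein gene (-0.38 ± 0.15), had the lowest p there and shrank to -0.16 and -0.05 without control replicate 1. The medians of the lateral and medial habenula lists changed sign when single libraries were left out.

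Genes studied in the habenula in models of depression were examined because of the study's subject. None of 17 passed, with a median of 0.04, which turned to -0.01 without CAIA replicate 1. Camk2b, a subunit of calcium/calmodulin-dependent kinase, was at 651 and 572 CPM in the controls and at 755, 774 and 642 CPM in CAIA, ranges that overlap (0.24 ± 0.13). Kcnj10, the astrocytic potassium channel gene, was at 0.09 ± 0.12, at 0.0045 without control replicate 1 and at 0.04 without CAIA replicate 1. The T-type calcium channel gene Cacna1h had the lowest p, with 19.5 and 24.9 CPM in the controls and 68.8, 108 and 53.3 CPM in CAIA (1.78 ± 0.36, edgeR adjusted p = 0.359). All 3 CAIA values of Cacna1h exceed both controls, and it passed without CAIA replicate 2 or 3. In females it had 1193, 562 and 1755 counts in the controls and 1519, 1167 and 755 in CAIA, overlapping ranges.

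Genes of neuronal activity gave no call. Of the 16 tested immediate early genes 13 were positive (49% of all genes tested). Their median was 0.27, and it was 0.07 without control replicate 1 and 0.18 without CAIA replicate 2. Fos was at 17.9 and 31.3 CPM in the controls and at 19.0, 32.2 and 46.4 CPM in CAIA, overlapping ranges (0.40 ± 0.50). It was at 0.05 without control replicate 1 and 0.06 without CAIA replicate 3, so its size rests on either. Egr3, an activity-induced zinc finger gene, was at 4.47 and 6.82 CPM in the controls and at 13.7, 21.2 and 11.9 CPM in CAIA (1.46 ± 0.29, edgeR adjusted p = 0.120). The related Egr4 was at 0.66 ± 0.26, and at 0.43 without control replicate 1. The neuropeptide Y gene Npy, a marker of forebrain interneurons, was at 1.32 and 0.861 CPM in the controls and at 2.72, 3.86 and 2.87 CPM in CAIA (1.53 ± 0.32, edgeR adjusted p = 0.0921).

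Transmitter and receptor genes gave no call either. Of the 16 GABA system genes 14 were positive (49% of all genes tested). Their median of 0.18 stayed between 0.18 and 0.28 without any one library. Gad1, which makes GABA from glutamate, was at 11.2 and 10.0 CPM in the controls and at 29.4, 37.0 and 74.4 CPM in CAIA (2.14 ± 0.52, edgeR adjusted p = 0.661). It was highest in CAIA replicate 3, and without that library it was at 1.65, with a call. The receptor subunit genes Gabra5 and Gabrb1 were at 0.59 ± 0.16 and 0.38 ± 0.15, and Gabrb1 was at 0.20 without control replicate 1. Among 18 glutamate system genes the median was 0.12, and 0.07 without CAIA replicate 1, with the AMPA receptor gene Gria2 at 0.45 ± 0.16 and the NMDA receptor gene Grin2a at 0.50 ± 0.14. Gria2 was at 0.18 without control replicate 1, where it was lowest at 180 CPM.

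Among the 17 monoamine and opioid receptor genes, the serotonin receptor genes Htr1a and Htr2a and the dopamine receptor gene Drd1 had low p but did not pass. Htr1a was at 0.265 and 0.789 CPM in the controls and at 2.09, 1.79 and 1.94 CPM in CAIA (1.86 ± 0.44, edgeR adjusted p = 0.156). Drd1 was at 1.21 and 1.43 CPM in the controls and at 2.33, 3.24 and 4.59 CPM in CAIA (1.35 ± 0.33). The groups do not overlap in either gene. Htr2a was at 0.58, and at 0.22 without control replicate 1. The list median of 0.27 rests on control replicate 1, without which it was 0.02. Of the cholinergic receptor genes, the nicotinic subunit gene Chrna7 was at 0.71 ± 0.17 and the muscarinic receptor gene Chrm1 at 1.48 ± 0.30, with 0 of 13 called and a list median of -0.01 that turned to 0.20 without control replicate 3.

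Inflammation was covered by lists of its mediators and its targets, since LPS acts on vessels and glia. Of 12 tested genes of the LPS response list, 1 passed, against 0.229% of all genes tested. Serpina3n, the acute-phase serpin gene of reactive astrocytes, was at 21.8 and 16.6 CPM in the controls and at 31.8, 39.8 and 32.5 CPM in CAIA, a rise of 0.86 ± 0.16 (edgeR adjusted p = 0.0466). Its call ended without any one of the 3 CAIA libraries. Ptgs2, the inducible cyclooxygenase gene, was at 0.378 and 0.825 CPM in the controls and at 3.63, 3.98 and 1.72 CPM in CAIA (2.35 ± 0.46, edgeR adjusted p = 0.0794). In females Ptgs2 had 103, 10 and 74 counts in the controls and 58, 37 and 28 in CAIA, overlapping ranges. Whether its rise in males is a response to LPS was not tested. The interleukin-1 receptor gene Il1r1 was at 0.88 ± 0.24, whereas Steap4, a metalloreductase gene, was lower in CAIA at -1.76 ± 0.44. At an unadjusted p under 0.05 in edgeR the list held 4 higher genes and 1 lower gene (2.88% and 1.81% of all genes tested). Of the 12, 8 were positive (49% of all genes tested). Every CAIA library was above both controls in 5 (9.34% of all genes tested) and below both in 1 (8.07%). The list median of 0.28 rests on single libraries, as it was 0.10 without control replicate 3 and 0.13 without CAIA replicate 3.

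The other immune lists had no called gene. Of the 18 listed cytokine and NF-kB genes 7 had enough counts to be tested, with a median of 0.14 that was -0.0040 without control replicate 1 and 0.0052 without CAIA replicate 2, so the list says little on cytokines. The MHC class II genes had a median of -0.32, and Cd74, their invariant chain, was at 6.09 and 3.52 CPM in the controls and at 1.70, 2.89 and 2.76 CPM in CAIA (-0.96 ± 0.30, edgeR adjusted p = 0.457). Control replicate 1 held the highest Cd74 level, and without it the fold change was -0.53 and the list median -0.06. Of the type I interferon genes the lowest p belonged to Bst2, a viral restriction factor gene, at -0.69 ± 0.26. The microglia markers Csf1r, the CSF receptor gene, and Mpeg1, the perforin-2 gene, were at 0.28 ± 0.11 and 0.49 ± 0.16, and Cx3cr1, the fractalkine receptor gene, at 0.14 ± 0.15. Cx3cr1 was at -0.0033 without control replicate 3 and at 0.03 without CAIA replicate 1.

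Lists of stress pathway genes gave small medians. Genes induced through the glucocorticoid receptor were positive in 16 of 17 (49% of all genes tested), with a median of 0.23 and 0 called. Fkbp5, a co-chaperone of the receptor, was at 23.9 and 29.3 CPM in the controls and at 34.3, 67.1 and 51.1 CPM in CAIA (0.94 ± 0.29, edgeR adjusted p = 0.715). The median was 0.08 without control replicate 1 and also 0.08 without CAIA replicate 2, which had the highest list level, 5.59 log2 CPM, against 4.82 and 5.24 in the other CAIA libraries and 4.69 and 5.08 in the controls. Ddit4, which inhibits mTOR signalling, shrank from 0.39 ± 0.16 to 0.20 without CAIA replicate 2. Depp1, a FOXO target, was at 0.681 and 0.430 CPM in the controls and at 0.552, 1.56 and 1.44 CPM in CAIA, overlapping ranges (1.09 ± 0.51). Mycl, a MYC family gene, was at 12.6 and 11.7 CPM in the controls and at 16.6, 21.4 and 19.6 CPM in CAIA (0.66 ± 0.15, edgeR adjusted p = 0.142).

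The list of endoplasmic reticulum stress genes, which holds chaperones and also transcription factors such as Xbp1, had 11 of 12 negative values, with a median of -0.20 and 0 called. Over all genes tested, 9590 of 18790 were negative. In 4 of the 12 every CAIA library was lower than either control (8.07% of all genes tested). At an unadjusted p under 0.05 in edgeR 3 were lower (1.81% of all genes tested). In females 9 of the list were positive. Sdf2l1 was at 13.2 and 16.8 CPM in the controls and at 10.5, 9.67 and 10.2 CPM in CAIA (-0.57 ± 0.16, edgeR adjusted p = 0.321), and its value was -0.37 without control replicate 3. Pdia4, a disulfide isomerase gene, was at -0.36 ± 0.12 and Manf, a secreted stress factor gene, at -0.31 ± 0.13. Among 12 cytosolic heat shock genes the inducible Hspa1a was at 6.21 and 12.5 CPM in the controls and at 5.80, 6.12 and 5.96 CPM in CAIA. Its value of -0.66 ± 0.26 rests on control replicate 3, without which it was -0.05.

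Collagens and connective tissue genes had a shared sign in part. Of 20 collagen genes 15 were negative, against 9590 of the 18790 genes tested. Their median was -0.16, and Col9a3 alone passed. The basement membrane gene Col18a1 was at 52.7 and 51.2 CPM in the controls and at 41.1, 42.3 and 36.6 CPM in CAIA (-0.38 ± 0.12). Col8a1 was at -0.92 ± 0.32. Among 12 meningeal fibroblast markers, Pcolce, an enhancer of collagen processing, was at 24.8 and 22.4 CPM in the controls and at 6.70, 15.2 and 7.75 CPM in CAIA (-1.25 ± 0.35, edgeR adjusted p = 0.614), and it passed without CAIA replicate 2. Its order of the CAIA libraries was that of the mean level of the choroid plexus genes given above, whose part in it was not tested. The GABA transporter gene Slc6a13, on the same list, was higher in CAIA at 0.67 ± 0.22. The list median of -0.26 turned to 0.01 without control replicate 3 or CAIA replicate 1.

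Vessel and astrocyte genes moved little. Slco1c1, the thyroxine transporter gene of brain endothelium, was at 54.4 and 57.1 CPM in the controls and at 39.6, 43.7 and 40.8 CPM in CAIA (-0.43 ± 0.11, edgeR adjusted p = 0.262). Its groups do not overlap, and without any one library it stayed between -0.48 and -0.38. Cldn5, the tight junction gene, had 52.6 CPM in control replicate 1 against 21.5 to 32.2 CPM in the other male libraries, and its fold change turned from -0.38 to 0.40 without that library. Acta2, the smooth muscle actin gene, was at 8.78 and 8.47 CPM in the controls and at 5.21, 4.64 and 5.63 CPM in CAIA (-0.74 ± 0.18, edgeR adjusted p = 0.175). The astrocyte markers had a small median of 0.11, which stayed between 0.09 and 0.19 without any one library. Of the 12, 9 were positive (49% of all genes tested), 5 were higher in every CAIA library (9.34%) and 0 were called. The intermediate filament gene Gfap was at 0.33 ± 0.13, the glutamate transporter gene Slc1a2 at 0.32 ± 0.14 and the water channel gene Aqp4 at 0.26 ± 0.15. Without control replicate 1 Slc1a2 was at 0.16 and Aqp4 at 0.01.

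**Figure D3:**
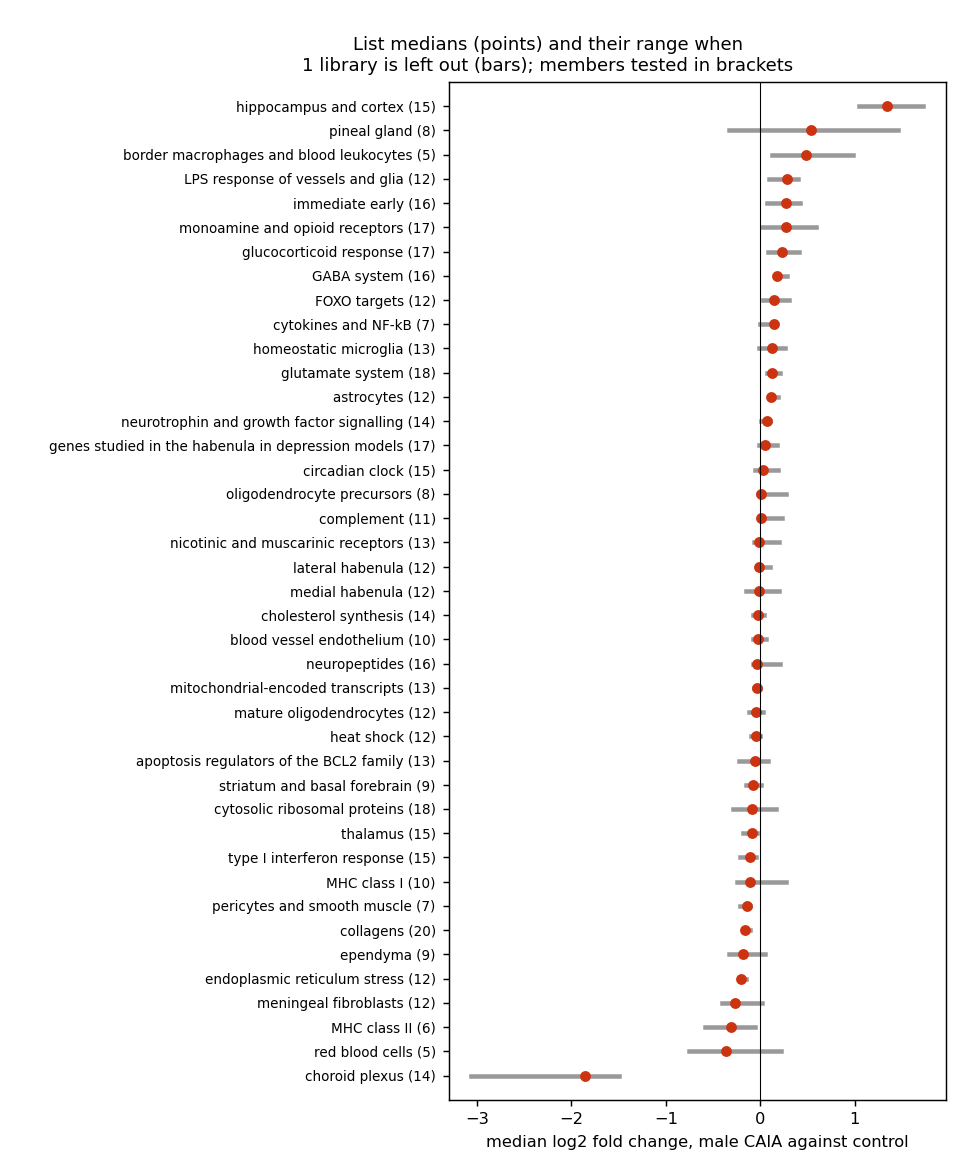
Median log2 fold change of male CAIA against control for each of the 41 gene lists (point), with the range of that median when each library was left out in turn (bar) and the number of members tested in brackets. The hippocampus and cortex list stays above 0 (1.04 to 1.72) and the choroid plexus list below 0 (-3.06 to -1.49), while the bars of many lists cross 0.

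The rises were then compared with the female contrast, in a fit of all 11 libraries. Of the 41 genes that rose in males, 7 had a positive fold change in females, where 49.5% of all genes had one, none was called there (51 genes, 0.260% of those tested, were called in females), and the medians were 1.73 in males and -0.24 in females. The difference between the sexes itself passed for none of the 41 (edgeR), with 35 of 41 at an unadjusted p under 0.05, against 4.11% of the 19619 genes tested. Those 35 were chosen for their male contrast, which enters the difference, so the count is a description. Over all genes 0 passed in the difference between sexes with edgeR (807 at an unadjusted p under 0.05) and 0 with limma-voom, and 2 with DESeq2.

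The genes with the lowest p in that difference were Hrk, Ptpre and Ak5 in the higher direction. Hrk was at 18.3, 16.5 and 21.1 CPM in female controls and at 20.1, 18.2 and 16.8 CPM in female CAIA, overlapping ranges. Its male minus female difference was 0.97 ± 0.20 (edgeR adjusted p = 0.978), and that of Ptpre was 0.70 ± 0.17. In the lower direction were Cdk2ap2, a cell cycle regulator gene, at -0.55 ± 0.14, and the predicted genes Gm5741 at -0.64 ± 0.17 and Gm38534 at -0.89 ± 0.25. None of these differences passed.

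The levels show where the male controls stood. Averaged over the 41 genes, the male controls were at 2.35 and 2.26 log2 CPM and the male CAIA libraries at 4.09, 4.44 and 3.85. The females were at 4.22, 2.41 and 4.08 in controls and at 3.81, 3.43 and 3.02 in CAIA, so female control replicate 2 resembled the male controls and the other female controls resembled male CAIA. The male controls were the lowest 2 of all 11 libraries for 18 of the 41 genes. These genes were chosen for a rise over the male controls, so that low place is partly set by the choice. For 32 of the 41, the female CAIA values lay within the range of the female controls. Tbr1 reached 43.4 and 20.3 CPM in female control replicates 1 and 3, above every male CAIA library, and was at 1.49 CPM in female control replicate 2. C1ql2 differed from this pattern, at 6.50, 7.08 and 9.67 CPM in female controls and 19.4, 35.3 and 9.08 CPM in female CAIA, a female fold change of 1.45 ± 0.47. The 2 genes that fell in males were negative in females too. Col9a3 was at -1.24 ± 0.13 there. Tcf21 had 1, 7 and 27 counts in female controls and 0, 2 and 0 in female CAIA, so its groups overlap and most of its control counts come from replicate 3.

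**Figure D4:**
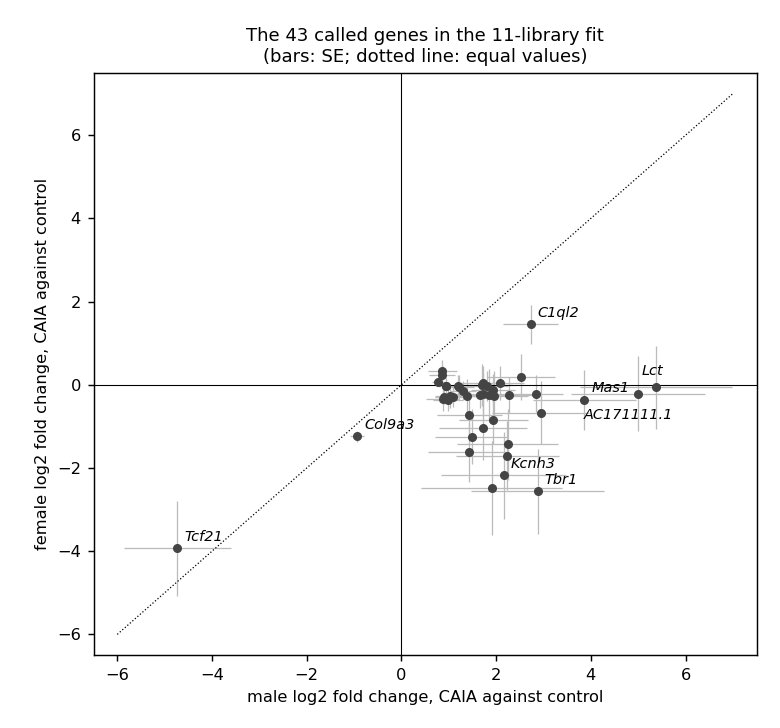
Log2 fold change of CAIA against control in males (horizontal) and in females (vertical) for the 43 called genes in the fit of all 11 libraries, with standard errors as bars and a dotted line of equal values. The 41 risers lie right of 0 with a female median of -0.24, C1ql2 is positive in both sexes, and Col9a3 and Tcf21 are negative in both.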

How the data were processed

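RNA from the lateral habenula was sequenced as 11 libraries, of which the 5 male ones are described. The deposited table holds raw counts per gene, with no normalization by the authors. The submitters' processing notes name cutadapt (1.9.1), HISAT2 (2.0.5), featureCounts (1.5.0-p3) and the build GRCm38. Neither the strand setting of the counting nor its annotation release is given in the sources used here. Groups came from the sample labels.

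Counts were filtered with filterByExpr, scaled with TMM factors and tested in edgeR 4.0.16 (R 4.3.3, glmQLFit with robust estimation, glmQLFTest, two-sided), with 3 residual degrees of freedom and Benjamini-Hochberg adjustment over the 18790 genes tested. Standard errors are the log2 fold change over the square root of F. The sexes were compared in 1 fit of 4 groups, with 19619 genes tested and 7 residual degrees of freedom. CPM use TMM library sizes over all 11 libraries, and log2 CPM add a prior count of 2. Only the edgeR fit of the male libraries alone was tested on simulated data.

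Gene lists, 41 in all, are described by counts and medians. A value rests on 1 library where leaving it out turned its sign, took it under 2/3 of its size or ended its call. Named genes were up to 12 called genes in each direction with a mean of at least 1 CPM, up to 6 in each direction with the widest gap at 5 CPM or more, up to 4 of each described list with the lowest p and its first member, up to 3 in each direction for the sex difference, and a fixed set. Some genes that this rule names are not reported here. Members, lists and rules were chosen with earlier results of these data known. Coordinates are from GENCODE M21, which matched 54409 of 54532 identifiers. Alternatives were other scaling, filters, thresholds, DESeq2 1.42.0, limma 3.58.1, a replicate block and each library left out. No library pair agreed within sampling noise. Precision is limited by the 2 controls. Figures were drawn with matplotlib 3.10.9.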

Additional observations from a re-analysis of the deposited data

How the results depend on the processing

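The 43 calls became 279 with no filter on low counts, 166 in DESeq2, 26 in limma-voom, 3 in limma-voom with quality weights, 81 at an adjusted p under 0.1, 0 in the fit of all 11 libraries and 207 without both libraries with pineal marker RNA. All of the 43 were among the calls without a filter and in DESeq2, and 19 were among those of limma-voom. Leaving out each library gave 22 to 540 calls. Other scaling, a minimum of 1 CPM and fitting without robust estimation gave 39 to 52. With the replicate number as a block 206 genes passed, the 43 among them, at 1 residual degree of freedom. Only the numbers 1 and 3 occur in both groups. The deviations of same-numbered libraries from their group means correlated at -0.02 for number 1 and -0.30 for number 3. The deviations of the controls from their own mean are mirror images of each other. Control replicate 1 thus correlated with CAIA replicate 3 at 0.30, the reverse of the value for control replicate 3. These values therefore cannot decide whether same-numbered libraries share more than a number. With the block the choroid plexus list had a median of -3.14 with 12 called, against 206 of the 18790 genes tested. The cause of these changes was not tested, except that each fit without a library has fewer samples.

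The count of genes that differed between the sexes was 0, 2 in DESeq2 and 0 under the other alternatives run, the replicate block included. Signs turned for uncalled genes when single libraries were left out. The range was -1.49 to 3.88 for Sag, -0.19 to 0.59 for Gch1, -0.41 to 0.036 for Rom1, -0.19 to 0.049 for Tac1, -0.33 to 0.21 for Gap43, -0.19 to 0.014 for Tcf7l2, -0.0033 to 0.30 for Cx3cr1 and -0.88 to 0.40 for Cldn5. With quality weights Sag was at -0.066, and with the replicate block Gap43 was at 0.022. Without both libraries with pineal marker RNA, Gap43 was at 0.11, Aqp4 at -0.0025, Cldn5 at 0.42 and Fos at -0.30. At this depth Lct, AC171111.1, Mas1 and Tcf21 rest on few counts in 1 group, which limits their sizes.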
